A study of Saccharomyces cerevisiae with 4 samples.

Results

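The genes described here are 9 amino acid permeases of the plasma membrane of budding yeast, AGP1, BAP2, BAP3, TAT1, TAT2, GNP1, CAN1, LYP1 and DIP5, together with SSY1, which encodes an amino acid sensor. They were found on the arrays by their systematic names, and all 10 had a probe, among 6388 gene probes in all. Each probe was printed as 3 spots per slide. The study compared strains after 45 min in 0.6 mol/L NaCl, on 4 two-colour oligonucleotide slides. BF2B (bdf1∆bdf2∆, with [BDF2 L] and [pYX242]) was hybridised with BF2 (bdf1∆, with [pYX242] and [pRS316]) on 2 slides, and BF2S (bdf1∆bdf2∆, with [BDF2 L] and [SIR2 H]) with BF2 on 2 more. Every strain thus lacked BDF1, which encodes a bromodomain protein that binds acetylated histones, and every RNA came from salt-treated cells, so there was no unstressed sample. The labels give neither the meaning of L and H nor the growth medium and its amino acids. The second slide of each pair carried the dyes the other way round. The labels describe no further culture, so both slides counted as 1 replicate. Hence no p-value could be computed, and every SD is the technical spread of 2 hybridisations. As bulk RNA was measured, fewer expressing cells and less RNA per cell cannot be told apart.

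Yeast cells sense amino acids outside the cell through the SPS complex, named after its subunits Ssy1, Ptr3 and Ssy5. Ssy1 resembles a permease but signals rather than transports. When it binds an amino acid, the protease Ssy5 cleaves the latent transcription factors Stp1 and Stp2, which then enter the nucleus and switch on permease genes such as AGP1, BAP2, BAP3, TAT1 and GNP1. CAN1 and LYP1 take up basic amino acids and are not classical targets of this pathway.

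A gene counted as called, higher or lower, if each slide of a pair put it past 2-fold on the same side of 1 and it was above local background in at least 1 channel of each slide. On the BF2B slides the blank spots were dim, with medians of 29 and 110 brightness units over local background in the BF2B channel and 52 and 70.5 units in the BF2 channel. All 10 genes exceeded these medians in both channels on both slides. On the BF2S slides the blank spots were bright. Their medians were 6049 and 5325 units for BF2S and 1708.5 and 1767.5 units for BF2. The deleted BDF1 was not above background in BF2B or BF2 on the BF2B slides, but on the BF2S slides it gave 1579.5 and 419.5 units in BF2S, against 161.2 and 404.8 units in BF2. It was above background in BF2S only on the first of these slides and in BF2 only on the second. Even so, the deleted gene met the rule for a higher gene, with a mean log2 ratio of 1.64 ± 0.28. BDF2 itself rose in BF2B, at 1.61 ± 0.03. SIR2 was not above background on the BF2B slides. On the BF2S slides SIR2 gave 1738 and 1320 units in BF2S, below the blank medians, against 274.8 and 706.7 units in BF2. BF2 was above background there on 1 slide only. SIR2 likewise met the rule for a higher gene, with a mean log2 ratio of 1.51 ± 0.18. Because of the blank spots and BDF1, the BF2S sample is named below only by its label, and the permeases are read mainly on the BF2B slides.

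In BF2B under salt, 0 of the 9 permease genes were called higher or lower than in BF2, beside 2.98% of the 4660 genes above background (1.37% higher and 1.61% lower). The 9 did not sit together. TAT1, GNP1, BAP3, BAP2 and TAT2 had ratios above 1 in BF2B on both slides. DIP5, CAN1 and AGP1 had ratios below 1 on both, and LYP1 changed sign between the slides. Among all genes above background, 31.6% had ratios above 1 on both slides and 32.0% below 1 on both. The mean log2 ratios ran from 0.91 for TAT1 to -0.76 for AGP1. SSY1 was too dim in both channels of both slides to pass the background criterion and is left out of these counts.

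**Figure D1:**
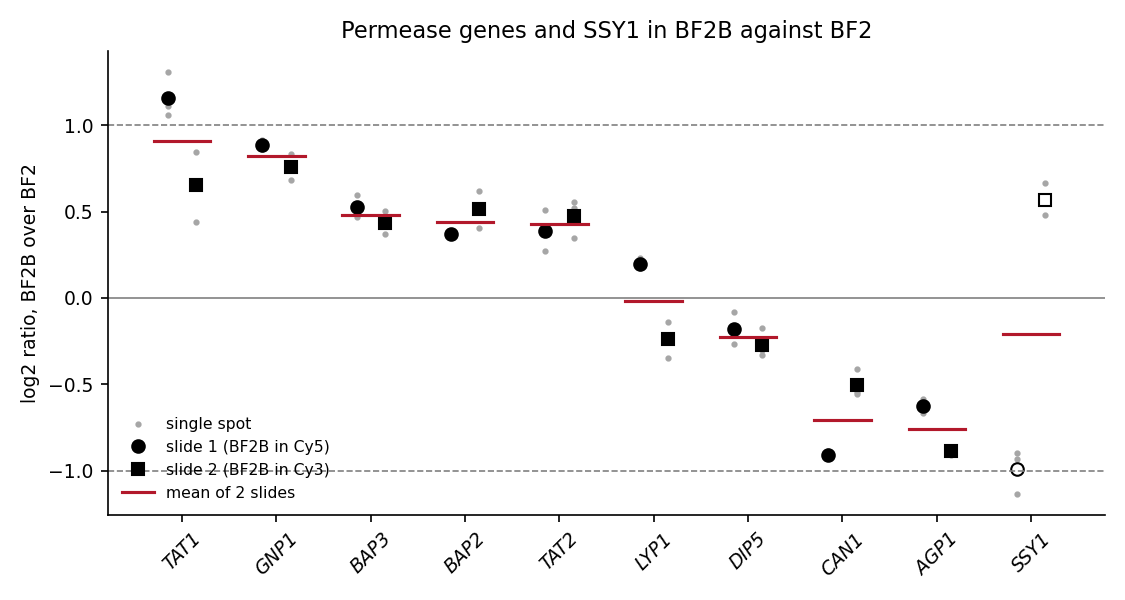
Log2 ratio of BF2B over BF2 for each gene (vertical axis) on slide 1 (circles) and slide 2 (squares), with the 3 single spots of each slide as grey dots and the mean of both slides as a red bar. Dashed lines mark 2-fold, and open symbols mark SSY1, which was not above background. TAT1 and GNP1 have the highest means, at 0.91 and 0.82, and CAN1 and AGP1 the lowest of the permeases, at -0.71 and -0.76.

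TAT1 (YBR069C) encodes a permease for tyrosine, valine, leucine and other bulky amino acids. It gave 1373 and 1154 units in BF2B on the 2 slides, against 469.7 and 818 units in BF2. On the first slide the BF2 signal was not above background. The log2 ratios were 1.16 and 0.65, a mean of 0.91 ± 0.36 or 1.87-fold. With the first slide past 2-fold and the second not, the gene was not called, and it ranked 116th from the top among 4660 genes. Its 6 spots spread more than those of the other permeases that lay above 0, from 0.44 to 1.31.

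GNP1 (YDR508C) encodes a high-affinity glutamine permease. Its signal was 4778 and 4631 units in BF2B, against 2468 and 3122 units in BF2. The log2 ratios of 0.89 and 0.76 averaged 0.82 ± 0.09, or 1.77-fold. All 6 spots lay between 0.68 and 0.92, and the gene ranked 147th.

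BAP2 (YBR068C) and BAP3 (YDR046C) encode permeases for branched-chain amino acids, and TAT2 (YOL020W) a high-affinity permease for tryptophan and tyrosine. BAP3 gave 2763 and 2651 units in BF2B, against 1833 and 2228 units in BF2. BAP2 gave 6344 and 6823 units in BF2B, against 4709.5 and 5649 units in BF2. TAT2 gave 1713 and 1678.5 units in BF2B, against 1226 and 1372 units in BF2. The mean log2 ratios were 0.48 ± 0.07 for BAP3, 0.44 ± 0.10 for BAP2 and 0.43 ± 0.06 for TAT2. They differed from one another by less than their SDs and lay at percentiles 91.3, 89.4 and 88.8 of all genes above background. BAP2 and TAT1 are neighbouring genes on chromosome II.

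**Figure D2:**
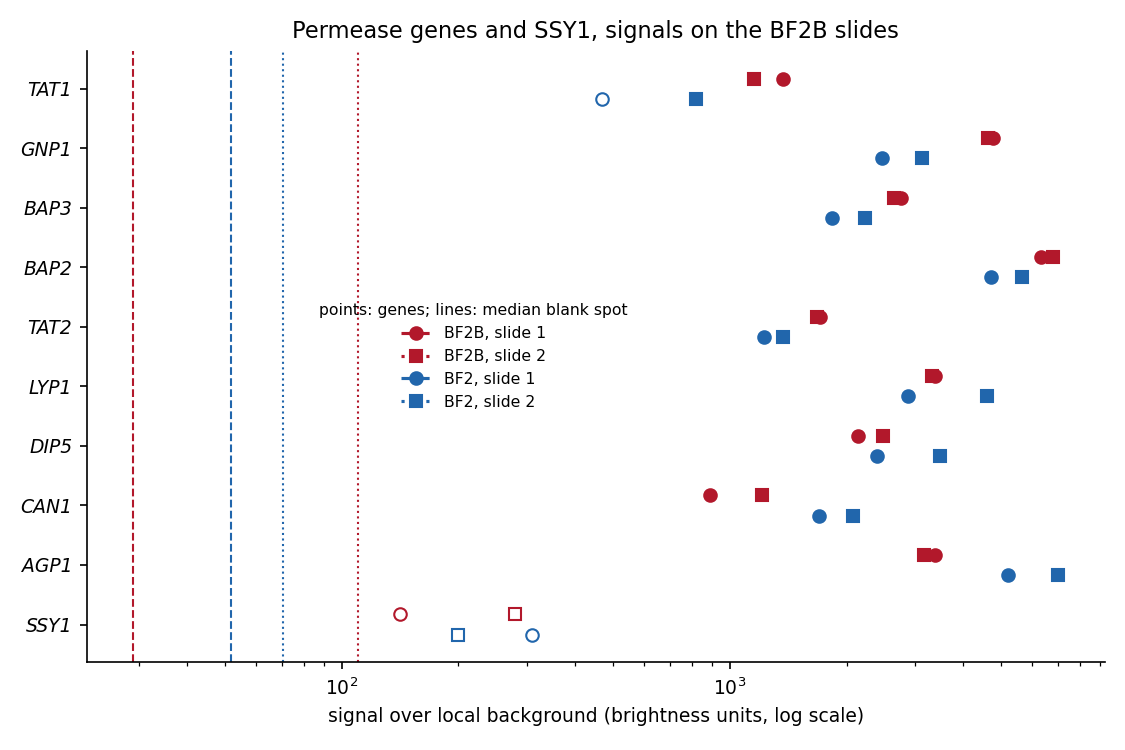
Signal over local background, on a log scale, of each gene in BF2B (red) and BF2 (blue) on slide 1 (circles) and slide 2 (squares) of the BF2B pair. Open symbols were not above local background, and vertical lines mark the median blank spot of each channel. Genes are ordered by their mean ratio, with TAT1 at the top and SSY1, which was not above background, at the bottom. Signals are not normalised between dyes or slides, so overlap of red and blue symbols is not a measure of change.

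AGP1 and CAN1 lay on the other side. AGP1 (YCL025C) encodes a permease of low affinity and broad specificity. It gave 3387.5 and 3167 units in BF2B, against 5214 and 7033.5 units in BF2. Its log2 ratios of -0.63 and -0.89 averaged -0.76 ± 0.18, with all 6 spots between -0.91 and -0.59. It thus lay near the bottom of the array, ranked 4474th of 4660 genes, at percentile 4.01. CAN1 (YEL063C), the arginine permease gene, gave 888 and 1209 units in BF2B, against 1699 and 2076 units in BF2. The log2 ratios of -0.91 and -0.50 averaged -0.71 ± 0.29, at percentile 4.83.

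LYP1 (YNL268W), the lysine permease gene, and DIP5 (YPL265W), the glutamate and aspartate permease gene, lay near 0. LYP1 gave 3384 and 3329.8 units in BF2B, against 2887 and 4604 units in BF2. Its log2 ratios were 0.20 and -0.24, a mean of -0.02 ± 0.31. DIP5 gave 2147 and 2477 units in BF2B, against 2401 and 3478 units in BF2. Its mean was -0.22 ± 0.07, at percentile 23.7. SSY1 (YDR160W) gave 141 and 279.8 units in BF2B, against 309.8 and 199.8 units in BF2. Its log2 ratios of -0.99 and 0.57 pointed opposite ways, so the arrays give no ratio for the sensor gene.

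The 9 permeases were ordered by their mean ratio. The gap between neighbours was larger than either gene's technical SD at 3 places only: between GNP1 and BAP3 (0.34), between TAT2 and LYP1 (0.45) and between DIP5 and CAN1 (0.48). The other gaps were 0.01 to 0.20, below the larger SD of the pair. With an SD from 2 hybridisations of 1 replicate, these gaps cannot show which permeases differ from each other. The median of the 9 was 0.43, beside -0.01 for all genes above background, and with SSY1 it was 0.21. Their mean ratios had an SD across genes of 0.61, beside 0.44 for all genes. Above the 95th percentile of all genes, a log2 ratio of 0.66, were TAT1 and GNP1. Below the 5th percentile, -0.70, were AGP1 and CAN1. At 1.5-fold in place of 2-fold, TAT1 and GNP1 were called higher and AGP1 lower, beside 8.82% of all genes (4.16% higher and 4.66% lower). As BAP2 and BAP3, and AGP1 and GNP1, are related in sequence and the probe sequences were not used here, cross-hybridisation between them was not tested.

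**Figure D3:**
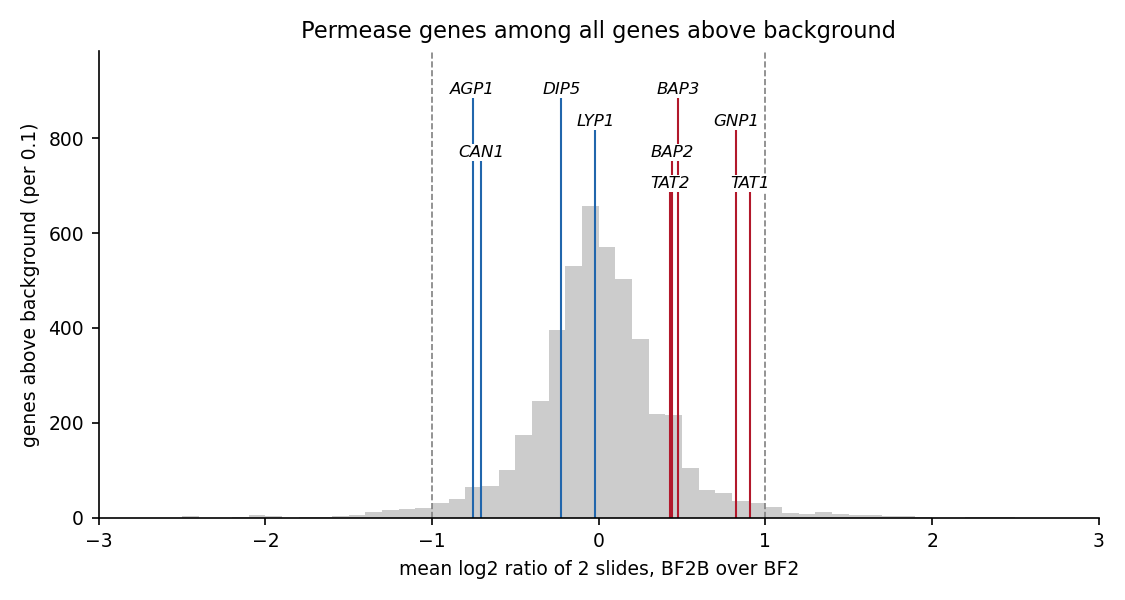
Histogram of the mean log2 ratio of BF2B over BF2 for the 4660 genes above background, in bins of 0.1, with the 9 permease genes as vertical lines (red above 0, blue below). Dashed lines mark 2-fold. All 9 lie inside these lines, with TAT1 and GNP1 in the upper flank and AGP1 and CAN1 in the lower.

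The genes nearest to TAT1, the permease farthest from 0, over the log2 ratios of all 4 slides were YNR065C, YER189W and MAG1. Their Euclidean distances were 0.21, 0.29 and 0.33 among 4314 genes above background on all slides. The BF2S slides, with their bright blank spots, entered these distances. Whether these genes share any control with TAT1 was not tested. MAG1 encodes a DNA glycosylase of base excision repair.

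No component of the pathway between sensor and permease genes was called in BF2B. Of 13 genes of the SPS sensor and its signalling, SSY1 among them, 9 were above background and 0 were called. Their median log2 ratio was 0.04, beside -0.01 for all genes. The farthest were YCK1, a casein kinase gene, at -0.68 ± 0.42, and GRR1, which encodes an F-box protein needed for the signal, at 0.18 ± 0.33. Named for their role and outside the rule for names, the protease gene SSY5 stood at 0.08 ± 0.18 and the transcription factor genes STP1 at -0.01 ± 0.18 and STP2 at 0.00 ± 0.49. PTR3 was not above background. GRR1 and STP2 were above background in only 1 channel of each slide, and SSY5 was above it in BF2 on the second slide only. Only 3 of the 9 genes were above background in both channels of both slides, so the ratios of the dimmer ones are less certain. Activation of Stp1 and Stp2 is by cleavage of the protein, which an RNA array does not measure.

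Other permeases of the plasma membrane went both ways. Of 13 amino acid and peptide permease genes outside the set, 8 were above background, with 1 higher, 1 lower and 6 not called, and a median of 0.33. GAP1, the general amino acid permease gene, gave 2890 and 2744.5 units in BF2B, against 11279 and 15912 units in BF2. At -2.09 ± 0.17 it was lower in BF2B. SAM3, the S-adenosylmethionine permease gene, gave 2574 and 2560 units in BF2B, against 1016 and 1383.5 units in BF2. At 1.10 ± 0.09 it was higher, a call that was lost with median centring (1.09), without background subtraction (0.99), in the authors' deposited table (1.05) and with the median of spots (1.07). The methionine permease gene MUP1, named after its value was seen, stood just inside the threshold at 0.90 ± 0.02. PTR2, a peptide transporter gene and a known target of the SPS pathway, named outside the rule, stood at 0.22 ± 0.08. It was above background in only 1 channel of each slide.

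**Figure D4:**
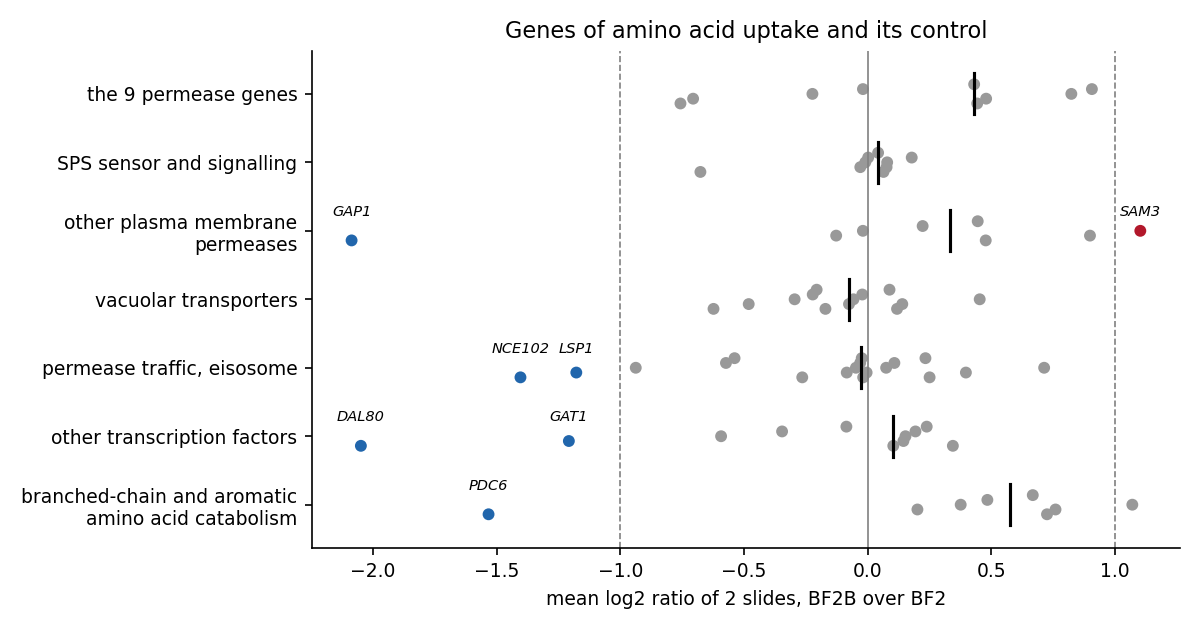
Mean log2 ratio of BF2B over BF2 for genes above background (dots) in 7 groups of genes of amino acid uptake and its control, with each group's median as a black bar. Red dots were called higher and blue dots lower, and dashed lines mark 2-fold. No gene of the permease set or of the SPS group was called, and GAP1, DAL80, PDC6, NCE102, GAT1 and LSP1 were lower in BF2B.

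Among the transcription factors of permease genes outside the SPS pathway, 11 of 12 were above background, with 0 higher, 2 lower and 9 not called, around a median of 0.10. The lower ones were GATA factors of nitrogen catabolite repression. GAT1, an activator, gave 1351 and 1287 units in BF2B, against 2901 and 4090.5 units in BF2. Its log2 ratio was -1.21 ± 0.21. The call was lost with median centring and in the authors' deposited table, at -1.22 and -1.44. DAL80, a repressor, was not above background in BF2B and was 2.51-fold lower against a floor. Such a floor estimate sets the BF2 mean against the lowest level above background of any gene, or the gene's own level if higher. Local background varies between spots, so a gene not above background can exceed that floor. The estimate is therefore not a strict lower limit.

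Permease traffic and the eisosome, a furrow of the plasma membrane where permeases such as Can1 gather, were represented by 19 genes with a probe. Of these, 18 were above background, with 0 higher, 2 lower and 16 not called, and a median of -0.03. NCE102 gave 7532 and 9019 units in BF2B, against 21694 and 23478 units in BF2, and its log2 ratio was -1.40 ± 0.45. LSP1 gave 2679.8 and 3031 units in BF2B, against 6682.5 and 7579 units in BF2, and its log2 ratio was -1.18 ± 0.18. Both encode eisosome proteins. PIL1, another core eisosome gene, stood at -0.94 ± 0.53 and was named after its value was seen. CSH3 was not analysed here.

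Of 15 vacuolar amino acid transporter genes, 13 were above background and 0 were called. Their median was -0.08, with RTC2 at -0.62 ± 0.03 and AVT6 at -0.48 ± 0.41 as the farthest. RTC2 was called lower with scaling, at -1.12, where this group had 1 call, as at 1.5-fold. The list for branched-chain and aromatic amino acid breakdown held 9 genes, among them LEU9 of leucine synthesis and BAT1, which also acts in synthesis. Of these 9 genes, 8 were above background, with 0 higher, 1 lower and 7 not called. Their median was 0.58, and 3 were called with scaling, at 1.5-fold or on slide 1 taken singly, and 2 by the mean ratio alone. The lower gene was the pyruvate decarboxylase gene PDC6, at -1.53 ± 0.21. The other 7 had means between 0.20 and 1.07. ARO10, a decarboxylase gene of aromatic amino acid breakdown named after its value was seen, led them with 1.24 and 0.90.

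The plasmid markers also differed. LEU2, a leucine synthesis gene and the marker of pYX242, which both strains carry by their labels, gave 14218 and 10501 units in BF2B, against 64821 and 65419 units in BF2. All BF2 spots of LEU2 were saturated, so its ratio is not given. URA3, the marker of pRS316, was lower in BF2B at -1.12 ± 0.08, a call lost with median centring (-1.05) and in the authors' deposited table (-1.21), where the mean stayed past 2-fold but not both slides. The part of these differences in the permease ratios was not tested.

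On the slides of the sample labelled BF2S, 7 of the 9 permease genes met the rule for a lower gene and 0 that for a higher one, beside 25.1% of 5290 genes lower and 19.3% higher, 44.4% in all. At 1.5-fold the counts were 8 lower and 1 higher, beside 32.5% and 30.8% of all genes, 63.3% together. This count cannot be read as that of the BF2B slides. In the BF2S channel 0 of the 10 genes exceeded the median of the blank spots, and only AGP1 and TAT1 were above local background on both slides. In the BF2 channel, 9 of the 10 were above local background on both slides and 3, AGP1, BAP2 and DIP5, were above the 95th percentile of the blank spots.

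**Figure D5:**
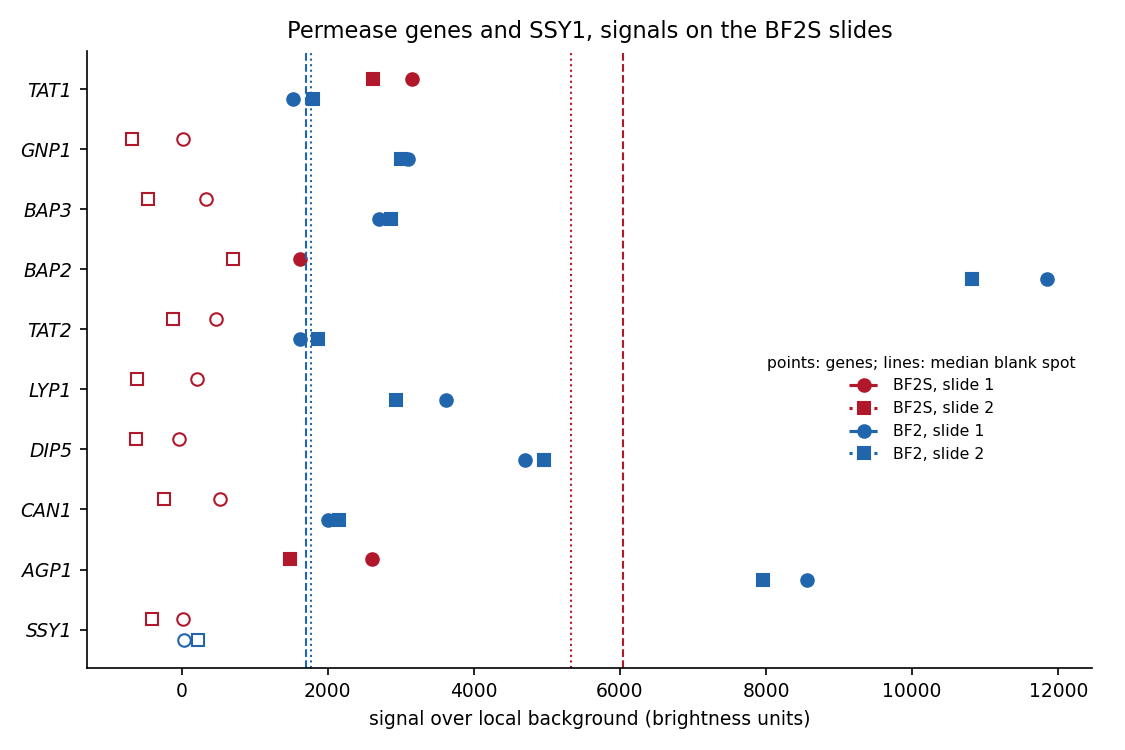
Signal over local background, on a linear scale, of each gene in the sample labelled BF2S (red) and in BF2 (blue) on slide 1 (circles) and slide 2 (squares) of that pair. Open symbols were not above local background, and vertical lines mark the median blank spot of each channel. All red symbols lie left of the red lines at 6049 and 5325 units.

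AGP1 and TAT1, the permease genes measured in both channels of both slides, were not called. AGP1 gave 2603 and 1479.5 units in the sample labelled BF2S, against 8555 and 7961.5 units in BF2, and its log2 ratio was -0.69 ± 0.06. With median centring it was called lower at -1.77, and in the authors' deposited table at -2.23. TAT1 gave 3160 and 2614 units in that sample, against 1519.8 and 1797 units in BF2, and its log2 ratio was 0.84 ± 0.10. Among the 2174 genes above background in both channels of both slides the median was 0.79.

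BAP2 gave 1627 and 701 units in the sample labelled BF2S, above background on the first slide only, against 11840 and 10822 units in BF2. Its log2 ratio was -1.96 ± 0.09. For the other 6 lower genes the sample labelled BF2S had no signal above background, so only floor estimates can be given. These hold for the main settings and rest on local background, not on the bright blank spots. They are not strict lower limits. Against the floor DIP5 was 4.36-fold lower, LYP1 2.95-fold, GNP1 2.75-fold and BAP3 2.63-fold. Without marked spots DIP5 had a log2 ratio of -1.55, short of its floor estimate, and was not called. CAN1 was 2.05-fold lower against the floor and TAT2 1.75-fold. On the first slide the BF2 signal of TAT2, 1615 units, was itself below the blank median of 1708.5 units. DIP5, with the highest floor estimate, gave -31 and -625 units in the BF2S channel, against 4707.5 and 4961 units in BF2. GNP1 gave 19.2 and -671 units there, against 3095 and 3004.5 units in BF2. Such lower calls without signal were common on these slides, where 810 of the 1328 lower genes lacked a BF2S signal above background on both. SSY1 was not above background in either channel. The comparison of BF2S with BF2 shares its BF2 strain with that of BF2B, so the ratios of both comparisons are given side by side and were not correlated.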

How the data were processed

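Per the labels, RNA was linearly amplified and Cy5- or Cy3-labelled cDNA was made from it. Each array's file lists spot and local background intensity in both channels, per the file headers. The deposited value table holds log2 ratios, which correlated positively with the strain over BF2 ratios on all 4 slides. Its 4 medians, 0.20, -0.29, 0.23 and -0.80, show no centring. The scanner and its software are not named there, and probe sequences were not used here.

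Ratios were recomputed with limma 3.58.1 in R 4.3.3 from spot medians (normexp with offset 50, loess on gene spots, mean of 3 spots, sign turned by dye). To count as above background, a channel needed 2 of a probe's 3 spots brighter than their surroundings by over 2 SD of the local background. Signals in the text are means of 3 spots after subtraction of the background median, without normalisation between dyes or slides. Tables used pandas 2.3.3 and numpy 2.4.6 under Python 3.11.15, and figures matplotlib 3.10.9. Probes were matched to gene names of the R64 RefSeq table for 5806 of 6388 probes. The genes, lists and rules were chosen with earlier results of these data known. For names, the rule took all 10 genes, up to 4 called genes of each list or the 2 farthest where none was called, and the label check genes. As alternatives, median centring, scaling, an offset of 10, no background subtraction, the deposited table, the median of spots, omission of marked spots, other filters and thresholds, and each slide alone were tried. The number of arrays limits the precision.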

Additional observations from a re-analysis of the deposited data

Results flagged for a closer look

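BAP2, BAP3, TAT2 and GNP1 lay above 0 on both BF2B slides and below 0 on both slides of the sample labelled BF2S, where BF2 was the partner in both pairs. BAP2 had a mean log2 ratio over BF2 of 0.44 in BF2B and of -1.96 in the sample labelled BF2S, in which it was above background on only 1 slide. GNP1, BAP3 and TAT2 were above background in the BF2S channel on neither slide, so only floor estimates are given for that sample. The log2 ratio of GNP1 was 0.82 in BF2B, and the gene was 2.75-fold lower against the floor in the sample labelled BF2S. For BAP3 the log2 ratio was 0.48 in BF2B, and the floor estimate 2.63-fold lower. For TAT2 it was 0.43 in BF2B, and the floor estimate 1.75-fold lower. The BF2 signal behind the TAT2 estimate was below the median blank spot on 1 slide. The difference between the comparisons was not tested.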

How the results depend on the processing

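In BF2B the log2 ratios of the 10 genes kept their sign under each of 7 alternative values (6 for SSY1), while LYP1 and SSY1 changed sign between single slides. Calls among the 9 permeases appeared only with scaling of all 4 slides to one spread, which widens the BF2B ratios by construction, and at 1.5-fold, each with 2 higher and 1 lower (TAT1, GNP1 and AGP1), and with 0 to 1 higher (TAT1) and 0 lower on single slides. The median of 0.43 was 0.38 without background subtraction, 0.77 scaled, 0.31 in the deposited table, 0.37 to 0.43 on single slides, and 0.21 without the filter on dim genes, with both channels above background or above the blank spots. All genes called numbered 452 scaled, 411 at 1.5-fold, 30 at 3-fold and 246 to 262 on single slides, beside 139, and the share of them that was higher was 57.3% on the slide with BF2B in Cy5 and 39.8% on the other, beside 46.0%. The list calls were recomputed under the same settings, added after the data were seen. PDC6 and DAL80 did not pass the filter on both channels. At 3-fold, 1 call was left among the other permeases, 1 among the transcription factors and 0 in traffic and breakdown.

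In the sample labelled BF2S the number of lower permeases, 7, was 2 in the deposited table (AGP1, not among the 7, and BAP2), 1 without marked spots, 0 with both channels above background and 2 above the blank spots. Only 3, 4, 2 and 3 permeases could be counted in these settings. It was 8 with median centring (AGP1 added) and 5 scaled (TAT2 and CAN1 lost), and 1 gene was higher at 1.5-fold. The median of the permeases, -1.98, was -1.39 with genes at their floor estimates. It was -1.60 without background subtraction, -2.06 with offset 10, -2.85 with median centring and -1.11 scaled. In the deposited table it was -2.23, without marked spots -1.16, with both channels above background 0.076 and on single slides -2.11 to -2.02. All genes called numbered 833 scaled, 1473 in the deposited table, 1303 without marked spots, 780 with both channels above background, 721 above the blank spots and 1102 at 3-fold, beside 2351. The share that was higher was 15.5% scaled, 29.7% in the deposited table, 93.7% with both channels above background and 10.8% above the blank spots, beside 43.5%. The median of all genes was -0.12 with median centring, 0.16 without marked spots, 0.79 with both channels above background and -1.39 above the blank spots, beside 0.05. The causes were not tested. No paired analysis was possible because no result comes from a test and the replicate number marks the dye orientation.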
